A study of Mus musculus with 11 samples.

Results

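The genes described here encode splicing factors and heterogeneous nuclear ribonucleoproteins (hnRNPs). They were taken from the count table as the protein-coding genes of the Srsf, Hnrnp, Snrp, Sf3a, Sf3b, U2af, Prpf and Lsm families with a mean of at least 10 counts over the samples. Of 51912 genes listed, 84 had such a symbol, 79 of these were protein-coding, and 76 reached the minimum and are called members. Snrpn, Srsf12 and U2af1l4 fell below it, at a mean of 1.09, 3.09 and 7.27 counts. The members were 20 hnRNPs, 13 PRPF proteins, 11 LSM proteins, 11 Sm and other snRNP proteins, 11 subunits of SF3A, SF3B and U2AF, and 10 SR proteins. All 76 passed the filter on low counts that left 15703 genes for testing.

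RNA was sequenced from 11 samples of lineage-negative C57BL/6 mouse bone marrow, transduced with retroviruses to ask how the order of 2 leukemia mutations changes gene expression. CSF3R-only cells (n = 4) carried mutant CSF3R, CSF3R(T618I), in a constitutive vector marked by GFP, together with an empty inducible vector. CSF3R-first cells (n = 3) carried the same constitutive CSF3R(T618I) and the mutant transcription factor CEBPA(V314VW) in the inducible vector, and CEBPA-first cells (n = 4) carried constitutive CEBPA(V314VW) and inducible CSF3R(T618I). In all groups the donor marrow expressed a tamoxifen-dependent Cre recombinase (ERT2-Cre) from the Rosa26 locus, and lineage-negative cells positive for both fluorescent markers were sorted and then cultured for 48 h without cytokines and with 4-hydroxytamoxifen, which switches on the inducible vector. The oncogenes are human sequences driven by viral vectors, so their levels are not those of the native genes. The labels do not say whether replicates came from separate mice, so the p-values measure the spread between these samples, which may be technical.

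Splicing removes introns from pre-mRNA and is carried out by the spliceosome, which is built from small nuclear RNAs and their proteins, the snRNPs. Sm and LSM proteins form rings around these RNAs, SF3A, SF3B and U2AF select the branch point and the 3′ splice site, and PRPF proteins act in the tri-snRNP and the catalytic steps. SR proteins and hnRNPs bind exons and introns and set which splice sites are used. In human myeloid neoplasms, SF3B1, SRSF2 and U2AF1 are recurrently mutated, and PRPF8 less often.

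Most members of every family were lowest in CSF3R-only and highest in CEBPA-first. They held 1.15%, 1.28%, 1.28% and 1.23% of all counts in CSF3R-only replicates A to D. In CSF3R-first replicates A, B and C their share was 1.41%, 1.76% and 1.63%, and in CEBPA-first replicates A to D it was 1.98%, 2.07%, 1.93% and 2.08%. The 3 groups did not overlap, and CSF3R-first replicate A lay closest to CSF3R-only.

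**Figure D1:**
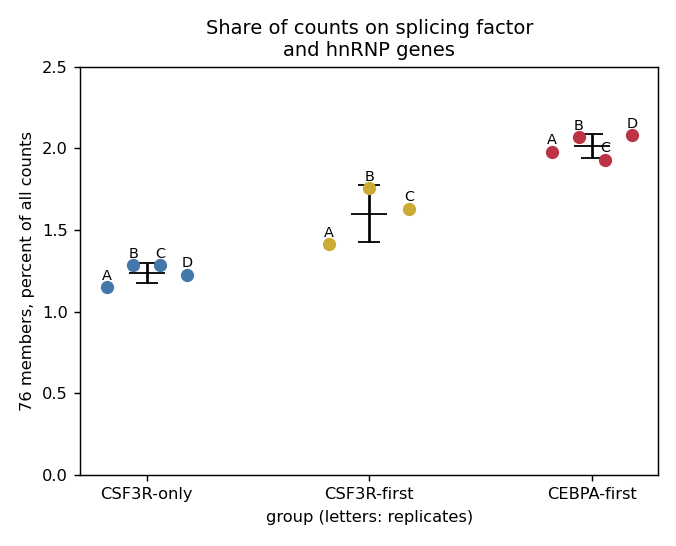
Share of all counts that fell on the 76 members, in percent, by group; points are samples lettered by replicate, the horizontal bar is the group mean and the whiskers are 1 SD. The CSF3R-only samples sit at 1.15% to 1.28%, the CSF3R-first samples at 1.41% to 1.76% and the CEBPA-first samples at 1.93% to 2.08%.

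Total counts ranged from 47905747 to 72268346 per sample (median 53353624). Several marker lists of other cell states differed between the groups. The 12 mature neutrophil markers took up 2.67% to 3.17% of the CSF3R-only counts, 1.53% to 2.47% of the CSF3R-first counts and 0.705% to 0.905% of the CEBPA-first counts, and between the outer groups all 12 were called lower in CEBPA-first. The 20 proliferation genes took up 0.336% to 0.406%, 0.513% to 0.661% and 0.723% to 0.792% in the same order, and all 20 were higher in CEBPA-first. The 8 markers of immature granulocytes and progenitors took up 0.253% to 0.309%, 0.473% to 0.545% and 0.654% to 0.724%, with 7 higher and 1 lower in CEBPA-first. Against CSF3R-only, 7 of 7 megakaryocyte, 7 of 8 monocyte and macrophage, 6 of 8 erythroid and 4 of 7 mast cell and basophil markers were lower in CEBPA-first, and 1 of each of the last 3 lists was higher, where 36.6% of all tested genes were lower and 35.4% higher. In CSF3R-first, 0 of 8 erythroid markers were called against CSF3R-only, where 21.6% of all tested genes were higher and 21.1% lower, and the erythroid share overlapped among all groups. In the same comparison 11 of 12 mature neutrophil, 7 of 7 megakaryocyte, 6 of 8 monocyte and macrophage and 6 of 7 mast cell and basophil markers were lower, and 20 of 20 proliferation genes and 6 of 8 immature granulocyte and progenitor markers were higher. In CEBPA-first against CSF3R-first, 12 of 12 mature neutrophil, 7 of 7 megakaryocyte, 6 of 8 monocyte and macrophage and 5 of 8 erythroid markers were lower. There 17 of 20 proliferation genes were higher and 0 lower, and 6 of 8 immature granulocyte and progenitor markers were higher and 1 lower. Of 7 mast cell and basophil markers 2 were higher and 2 lower, where 24.0% of all tested genes were higher and 24.3% lower. Mitochondrially encoded genes took up 0.414% to 0.515% of the CSF3R-only counts, 0.461% to 0.543% of the CSF3R-first counts and 0.203% to 0.511% of the CEBPA-first counts, with CEBPA-first replicate B lowest. Of the markers of lymphocytes, which the lineage depletion should remove, 2 of 6 B cell and 1 of 6 T cell genes passed the filter on low counts, and the T cell list reached at most 3.23e-05% of counts in any sample. The B cell list took up 0.000335% to 0.000424% of counts in CSF3R-only and 0.000607% to 0.000696% in CEBPA-first, where Cd79b was called higher (log2 fold change 0.82, edgeR adjusted p = 1e-04) and Cd79a lower (-2.21, adjusted p = 8.9e-05). In CSF3R-first replicate A the neutrophil share was 2.47% and the proliferation share 0.513%, both closer to CSF3R-only than in replicates B and C. The part of these cell states in the results on the members was not tested, and in bulk samples fewer cells of a type and less RNA per cell cannot be told apart.

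Sequences upstream of 4 members are shown first because these members mark the extremes. Hnrnpa1, Lsm3 and Prpf40b were the members with a log2 fold change of 1 or more between CEBPA-first and CSF3R-only, and Lsm10 was the single member called lower. Each is read 5′ to 3′ on the plus strand from RefSeq promoter windows of GRCm38.p6 and ends before the first annotated base of the gene. Positions are counted back from the RefSeq start, and capitals mark matches to the motifs named afterwards.
Hnrnpa1, chr15:103240147-103240396: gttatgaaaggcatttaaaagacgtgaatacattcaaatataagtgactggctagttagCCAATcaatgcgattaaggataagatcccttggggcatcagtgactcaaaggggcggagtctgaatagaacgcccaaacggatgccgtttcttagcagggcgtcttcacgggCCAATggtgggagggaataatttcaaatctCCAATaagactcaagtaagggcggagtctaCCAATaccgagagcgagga
Lsm3, chr6:91515785-91515927: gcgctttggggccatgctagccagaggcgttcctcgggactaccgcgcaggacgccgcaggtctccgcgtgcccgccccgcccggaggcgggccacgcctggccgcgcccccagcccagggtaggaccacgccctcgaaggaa
Prpf40b, chr15:99294991-99295086: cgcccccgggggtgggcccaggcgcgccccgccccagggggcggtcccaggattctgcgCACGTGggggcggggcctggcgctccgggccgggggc
Lsm10, chr4:126096403-126096622: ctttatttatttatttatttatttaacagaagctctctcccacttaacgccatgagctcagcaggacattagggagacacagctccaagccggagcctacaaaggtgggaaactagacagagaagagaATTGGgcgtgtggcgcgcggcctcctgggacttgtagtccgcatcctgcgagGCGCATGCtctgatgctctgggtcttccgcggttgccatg

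The motifs searched on both strands were CACGTG (the E-box bound by MYC and related factors), CCGGAA (the core of ETS factor sites), GCATGCGC (NRF1), TTGCNNCAA (C/EBP factors, the family of CEBPA), CCAAT and TATAAA. Hnrnpa1 held 4 CCAAT matches, beginning at -191, -79, -49 and -19. The stretch shown for Prpf40b held an E-box at -191, while CCAAT matches of Prpf40b at -33 in the same 250-base window and at -247 in the window of another start lie outside it. Lsm10 held a CCAAT match at -122 and an NRF1 match at -70. The stretch shown for Lsm3 held no match to these letters. Promoter windows were listed for 64 of the 76 members, 84 windows in all, and the motifs were counted over the 250 bases before each start. CCGGAA was present in 40.5% of the members' windows, in 20.6% of the 13899 windows of tested genes and in 12.0% of all 32851 windows. CCAAT was present in 46.4% of the members' windows against 35.1% in tested genes and 33.8% in all windows, and CACGTG in 9.52% against 7.94% and 6.02%. GCATGCGC was present in 7.14% against 4.07% and 2.26%, and TATAAA in 5.95% against 6.87% and 12.4%. TTGCNNCAA was present in 0 of the 84 windows, against 1.32% in tested genes and 1.74% in all windows. These are counts of letters in these windows, with no test, and they do not show binding.

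The first comparison set CEBPA-first against CSF3R-only, which differ in the constitutive oncogene and in the presence of CEBPA(V314VW). Of the 76 members, 69 were higher in CEBPA-first, 1 was lower and 6 were not called (edgeR quasi-likelihood test, Benjamini-Hochberg adjusted p under 0.05 over all tested genes). The members called higher were 90.8% of all members, where 35.4% of all tested genes were called higher and 36.6% lower. The median log2 fold change of the members was 0.645, against -0.004 over all tested genes, and the middle of the distribution, from the lower to the upper quartile, ran from 0.363 to 0.766. A change of 1 or more on the log2 scale was reached by 3 members, each of them called higher. Among all tested genes, 27.0% were called with a change of that size, 8.1% higher and 19% lower. The samples of these groups were fully separate in 70 members, and in 68.7% of all tested genes.

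**Figure D2:**
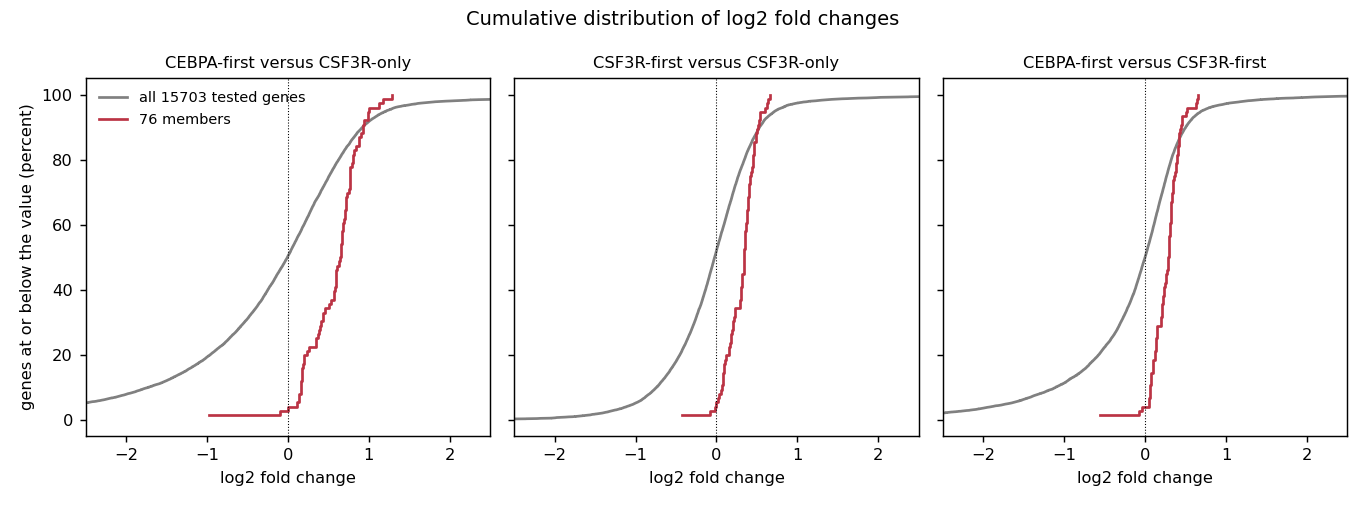
Cumulative distribution of log2 fold changes in the 3 comparisons, for all 15703 tested genes (grey) and for the 76 members (red); the y axis gives the percent of genes at or below each value, and 1 panel stands for each comparison. In the panels from left to right 74, 72 and 73 of the 76 members lie above 0, with medians of 0.645, 0.343 and 0.290.

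CSF3R-first was compared with CSF3R-only to see what CEBPA(V314VW) adds when it is switched on second. In CSF3R-first, 56 members were higher, 1 was lower and 19 were not called, where 21.6% of all tested genes were higher and 21.1% lower. The median log2 fold change was 0.343, against -0.022 over all genes. The median ran from 0.287 without CSF3R-first replicate B to 0.401 without replicate A. No member changed by 1 or more on the log2 scale, the largest log2 fold change being 0.67 for Hnrnpa1. Among all tested genes, 6.65% were called with such a change, 2.1% higher and 4.5% lower. The groups did not overlap in 57 members and in 42.1% of all genes.

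CEBPA-first was compared with CSF3R-first because both carry the 2 oncogenes, in opposite order. Each oncogene is constitutive in 1 of these groups and inducible in the other, so vector and time of expression change together with the order. These samples cannot separate them, and their separate parts were not tested. In CEBPA-first, 51 members were higher, 1 was lower and 24 were not called, where 24.0% of all tested genes were higher and 24.3% lower. The median log2 fold change was 0.290, against 0.001 over all genes. No member passed a log2 fold change of 1, the largest being 0.655 for Lsm3. Among all tested genes, 12.8% were called with such a change, 2.6% higher and 10.3% lower. The groups did not overlap in 61 members and in 52.2% of all genes. The 3 comparisons share samples pairwise, so their values are given side by side and not as support for each other.

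Across the 3 comparisons, 45 members were called higher in each, as were 14.5% of all tested genes, and Lsm10 was called lower in each, as were 14.2%. Another 11 members were higher in both groups with CEBPA(V314VW) than in CSF3R-only with no call between these groups, among them 5 LSM proteins of the nuclear ring, and 6.16% of all tested genes had this pattern. A further 6 members were higher in CEBPA-first than in either other group with no call between CSF3R-first and CSF3R-only, namely Prpf4b, Prpf6, Prpf8, Snrpf, Hnrnph2 and Hnrnpk, a share near the 8.05% of all tested genes with this pattern. The mean log2 CPM (counts scaled to library size) of CSF3R-first lay between the other means in 73 of 76 members (96.1%), and in 76.1% of all tested genes. With CSF3R-only set to 0 and CEBPA-first to 1, its median position was 0.528 for the members and 0.468 for all tested genes. The exceptions were Srsf5, Hnrnph2 and Hnrnpll, none of which was called against both other groups.

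**Figure D3:**
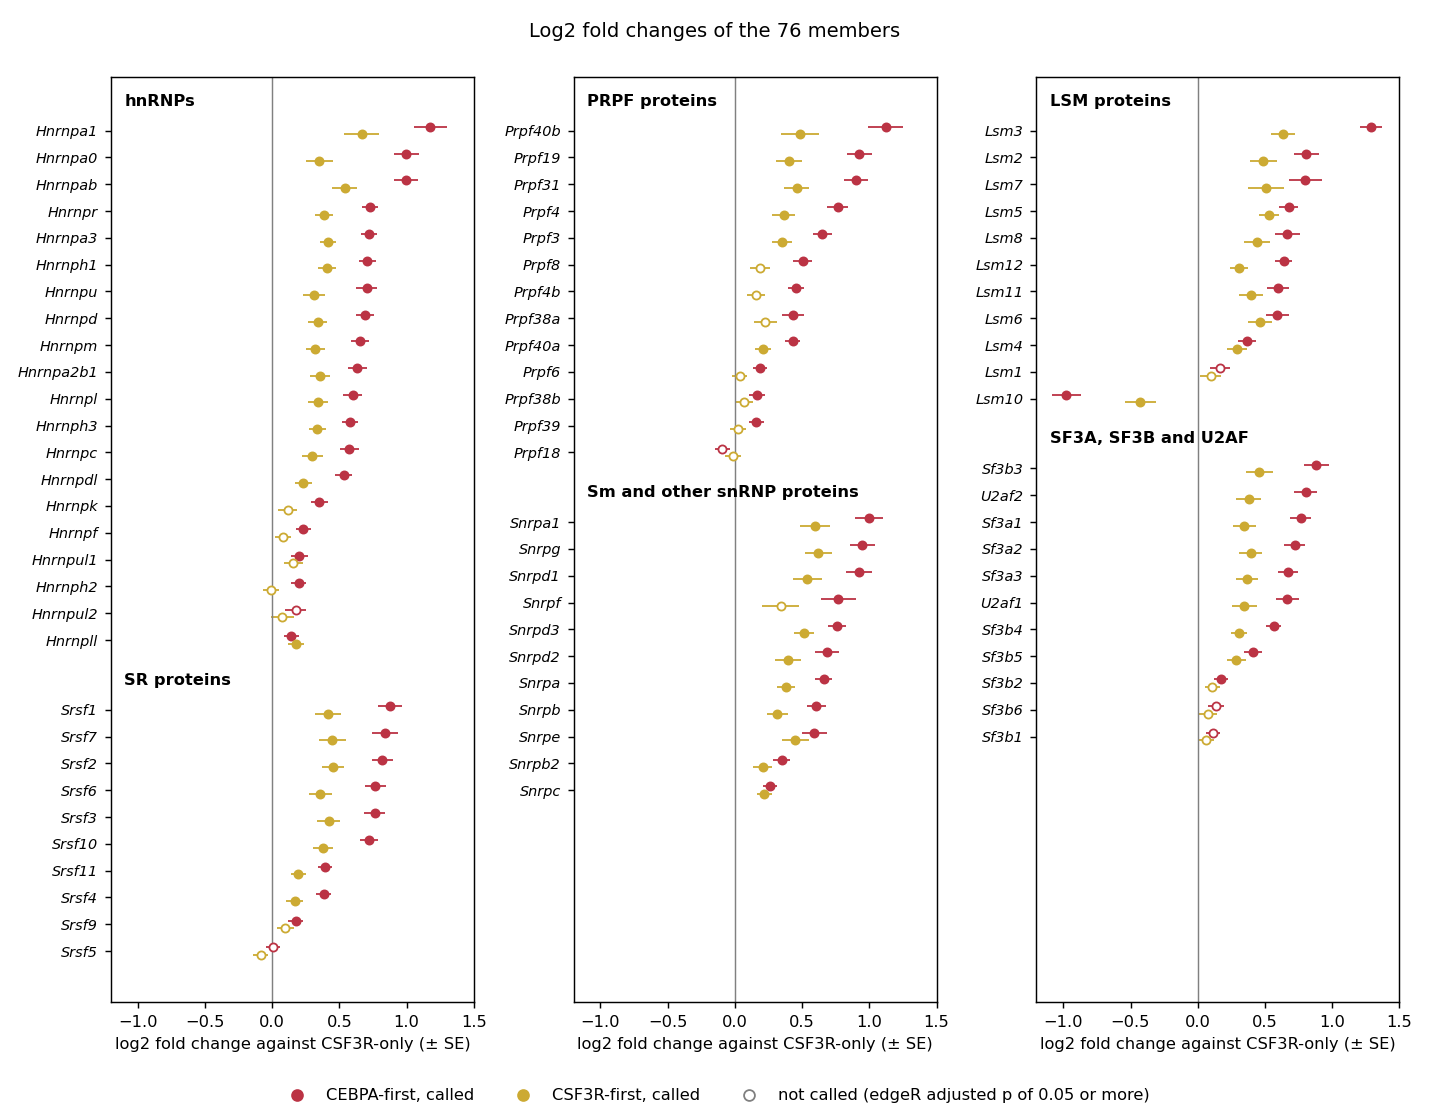
Log2 fold change of each member against CSF3R-only, for CEBPA-first (red) and CSF3R-first (yellow), with 1 SE; members are ordered within families by the CEBPA-first value, and open circles mark values not called (edgeR adjusted p of 0.05 or more). In nearly all rows the red point lies right of the yellow one and both lie right of 0, with Lsm10 alone at -0.98 and -0.43.

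The counts of each family and list can be read against the 35.4%, 21.6% and 24.0% of all tested genes called higher in CEBPA-first over CSF3R-only, CSF3R-first over CSF3R-only and CEBPA-first over CSF3R-first. SR proteins, which bind exonic enhancers and recruit the spliceosome, were higher in CEBPA-first than CSF3R-only in 9 of 10 members (median log2 fold change 0.741), and higher in CSF3R-first than in CSF3R-only in 8 of 10 (0.369). Srsf1, the best known splicing factor with oncogenic activity, rose most. Its level was 362 ± 21.0 CPM in CSF3R-only (SD, n = 4), 484 ± 64.9 CPM in CSF3R-first (n = 3) and 666 ± 49.8 CPM in CEBPA-first (n = 4). The log2 fold change of Srsf1 between the outer groups was 0.88 (SE 0.09, edgeR adjusted p = 1.4e-06). Srsf2 had the highest level per length of the SR proteins, 163 CPM per kb of exon over all samples. It was at 318, 380, 358 and 345 CPM in CSF3R-only replicates A to D, at 431, 524 and 483 CPM in CSF3R-first, and at 632, 650, 582 and 610 CPM in CEBPA-first. No sample of one group overlapped another. For Srsf2 the log2 fold change was 0.82 for CEBPA-first over CSF3R-only (SE 0.08, edgeR adjusted p = 8.1e-07), 0.45 for CSF3R-first over CSF3R-only (adjusted p = 0.0011) and 0.37 between the 2 orders (adjusted p = 0.0033). Of 100-base windows of its transcripts, 16.6% are shared with the neighbouring genes Mfsd11 and Mettl23.

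Srsf5 was the SR gene that was not called. It was at 472, 477, 466 and 441 CPM in CSF3R-only, at 446, 426 and 438 CPM in CSF3R-first and at 482, 459, 469 and 454 CPM in CEBPA-first. The CSF3R-only and CEBPA-first samples overlapped, and the log2 fold change between them was 0.007 (SE 0.05, edgeR adjusted p = 0.91). Srsf9 changed little, with a log2 fold change of 0.17 (edgeR adjusted p = 0.018).

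Among hnRNPs, RNA-binding proteins that coat nascent transcripts and often repress splice sites, 19 of 20 were higher in CEBPA-first than CSF3R-only (median log2 fold change 0.617) and 15 of 20 in CSF3R-first (0.329). Hnrnpa1 (ENSMUSG00000046434, chromosome 15, 103240432 to 103246692, plus strand), the main antagonist of SR proteins in splice site choice, rose most. It was at 123, 172, 169 and 142 CPM in CSF3R-only, at 196, 283 and 241 CPM in CSF3R-first, and at 332, 367, 321 and 348 CPM in CEBPA-first. CSF3R-only replicate A was lowest and every group was separate from the next. Its log2 fold change was 1.18 for CEBPA-first over CSF3R-only (SE 0.12, edgeR adjusted p = 1.9e-06), 0.67 for CSF3R-first over CSF3R-only (SE 0.13, adjusted p = 0.0016) and 0.51 between the orders (SE 0.13, adjusted p = 0.0067). Of its 100-base windows, 25.9% also occur in 11 other gene models, so part of its reads could be counted there or come from them.

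Hnrnpa2b1, a close relative, was the most abundant hnRNP per length, at 242 CPM per kb. Its level was 1247 ± 64.5 CPM in CSF3R-only (SD, n = 4), 1594 ± 104 CPM in CSF3R-first (n = 3) and 1936 ± 79.6 CPM in CEBPA-first (n = 4), a log2 fold change of 0.63 for CEBPA-first over CSF3R-only (SE 0.07, edgeR adjusted p = 2.8e-06). Hnrnpa0 and Hnrnpab reached log2 fold changes of 0.996 and 0.994, just short of 1. The lowest values were those of Hnrnpll, at 0.14 (edgeR adjusted p = 0.035), and Hnrnpul2, at 0.18, which was not called in any comparison. Hnrnpul2 was called without CEBPA-first replicate B (0.22, edgeR adjusted p = 0.036), CSF3R-first replicate A (0.18, adjusted p = 0.041) or CSF3R-first replicate C (0.19, adjusted p = 0.024), and in a fit of the compared groups alone (0.17, adjusted p = 0.031). Hnrnpf, at 0.23, shares 49.4% of its windows with other genes and is uncertain for that reason.

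The 7 proteins of the Sm ring, which surrounds the U1, U2, U4 and U5 RNAs, were all higher in CEBPA-first than CSF3R-only, with log2 fold changes from 0.59 to 0.95. In CSF3R-first, 6 of the 7 were higher than in CSF3R-only. Snrpb, which encodes SmB, had the highest level per length of this family, at 140 CPM per kb. In the order CSF3R-only, CSF3R-first, CEBPA-first, which the next values keep, it was at 220 ± 21.3, 274 ± 11.7 and 334 ± 10.9 CPM (SD). Its log2 fold change was 0.605 for CEBPA-first over CSF3R-only (SE 0.07, edgeR adjusted p = 5.4e-06). Snrpf, at 5.0 ± 0.954, 6.33 ± 0.311 and 8.53 ± 0.680 CPM, was the ring member with no call between CSF3R-first and CSF3R-only (edgeR adjusted p = 0.065). Its value is uncertain, since only 14.6% of its exon bases are free of overlap with another gene and no source used here states whether strand was used in counting.

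The 4 proteins particular to U1 and U2 snRNPs were also all higher in CEBPA-first and in CSF3R-first than in CSF3R-only. Snrpa1, a protein of the U2 snRNP, rose most of the family, from 56.7 ± 9.07 through 85.6 ± 9.64 to 113 ± 6.15 CPM. Its log2 fold change was 0.995 for CEBPA-first over CSF3R-only (SE 0.10, edgeR adjusted p = 2.3e-06). The U1 protein Snrpc had the smallest of the family, at 0.26 (SE 0.05, edgeR adjusted p = 0.00055).

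The nuclear LSM ring holds U6 RNA and has 7 proteins, LSM2 to LSM8. All 7 were higher in CEBPA-first and in CSF3R-first than in CSF3R-only, with median log2 fold changes of 0.677 and 0.486. Between the orders 2 of 7, Lsm2 and Lsm3, were called higher in CEBPA-first, a share near the 24.0% of all tested genes. Lsm3 (ENSMUSG00000034192, chromosome 6, 91515928 to 91522625, plus strand) changed most of all members. It was at 24.1, 30.7, 27.8 and 25.6 CPM in CSF3R-only, at 37.0, 44.2 and 44.6 CPM in CSF3R-first and at 68.0, 66.5, 61.9 and 67.7 CPM in CEBPA-first. All groups were separate. The log2 fold change was 1.29 for CEBPA-first over CSF3R-only (SE 0.08, edgeR adjusted p = 4e-08), 0.63 for CSF3R-first over CSF3R-only (SE 0.09, adjusted p = 0.00025) and 0.655 between the orders (SE 0.09, adjusted p = 0.00012). Lsm4 had the highest level per length of the LSM proteins, at 91.5 CPM per kb, with 81.5 ± 7.85, 99.7 ± 2.03 and 105 ± 4.98 CPM in the 3 groups and a log2 fold change of 0.37 (edgeR adjusted p = 0.00029). Lsm1, whose protein replaces LSM8 in the cytoplasmic ring that acts in mRNA decay, was at 37.9 ± 4.14, 40.4 ± 0.671 and 42.5 ± 2.04 CPM and was not called in any comparison (log2 fold change 0.17, edgeR adjusted p = 0.056). Without CSF3R-only replicate B, its highest sample of that group, Lsm1 was called higher in CEBPA-first (0.24, edgeR adjusted p = 0.002) and in CSF3R-first (0.17, adjusted p = 0.035). Without CSF3R-first replicate C it was called higher in CEBPA-first (0.18, edgeR adjusted p = 0.043).

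Lsm10 (ENSMUSG00000050188, chromosome 4, 126096623 to 126098584, plus strand) was the only member called lower. With LSM11 its protein belongs to the ring of the U7 snRNP, which acts not in splicing but in the 3′ end processing of histone mRNAs. Lsm10 was at 37.8, 40.2, 36.8 and 35.5 CPM in CSF3R-only, at 35.0, 22.9 and 26.0 CPM in CSF3R-first, and at 19.6, 18.1, 20.2 and 18.4 CPM in CEBPA-first. CSF3R-first replicate A lay next to the CSF3R-only samples, and the groups did not overlap. Lsm10 fell by 0.98 on the log2 scale in CEBPA-first relative to CSF3R-only (SE 0.11, edgeR adjusted p = 3.4e-06), by 0.43 in CSF3R-first relative to CSF3R-only (SE 0.12, adjusted p = 0.011) and by 0.55 in CEBPA-first against CSF3R-first (SE 0.12, adjusted p = 0.0021). The call between CSF3R-first and CSF3R-only was lost without CSF3R-first replicate B (log2 fold change -0.30, edgeR adjusted p = 0.056) or replicate C (-0.36, adjusted p = 0.051), and the log2 fold change between the orders was -0.356 without replicate A. None of its exon bases overlap another gene and none of its windows occur elsewhere.

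Its partner Lsm11 went the other way. It was at 8.49, 9.01, 9.55 and 9.88 CPM in CSF3R-only, at 10.7, 13.0 and 12.7 CPM in CSF3R-first and at 13.3, 14.3, 13.8 and 14.5 CPM in CEBPA-first. For Lsm11 the log2 fold change was 0.60 for CEBPA-first over CSF3R-only (SE 0.08, edgeR adjusted p = 2.6e-05) and 0.40 for CSF3R-first over CSF3R-only (adjusted p = 0.004), with no call between the orders (0.20, adjusted p = 0.08).

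**Figure D4:**
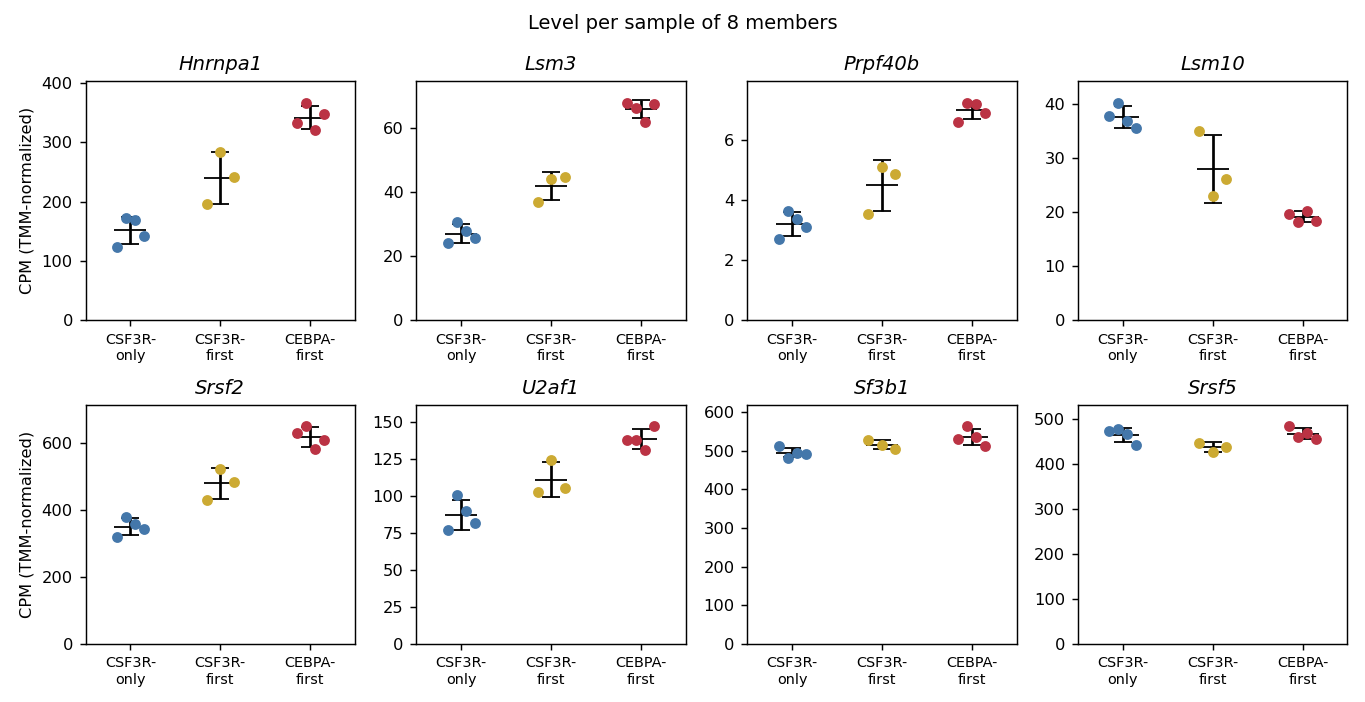
Level of 8 members in every sample, in TMM-normalized CPM with each y axis starting at 0; points are samples, the horizontal bar is the group mean and whiskers are 1 SD. Hnrnpa1, Lsm3, Prpf40b, Srsf2 and U2af1 increase from left to right, Lsm10 decreases from 35.5 to 40.2 CPM in CSF3R-only to 18.1 to 20.2 CPM in CEBPA-first, and Sf3b1 and Srsf5 stay within narrow ranges.

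SF3A and SF3B are parts of the U2 snRNP that grip the branch point. Of their 9 subunits among the members, 7 were called higher in CEBPA-first than CSF3R-only. The 3 SF3A subunits were higher in CEBPA-first than CSF3R-only by 0.67 to 0.77 on the log2 scale, and all 3 were also called in both other comparisons. Of the 6 SF3B subunits among the members, 4 were called between CEBPA-first and CSF3R-only, from 0.17 for Sf3b2 to 0.88 for Sf3b3. Sf3b3, a scaffold of the complex, was at 256 ± 9.84, 351 ± 56.4 and 471 ± 36.6 CPM in the 3 groups, and its log2 fold change of 0.88 (SE 0.09, edgeR adjusted p = 2e-06) was the largest among the SF3A, SF3B and U2AF subunits.

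Sf3b1 (ENSMUSG00000025982, chromosome 1, 54985169 to 55027481, minus strand), the subunit that contacts the branch point helix, was not called in any comparison. It was at 512, 482, 493 and 493 CPM in CSF3R-only, at 527, 515 and 505 CPM in CSF3R-first and at 530, 563, 536 and 513 CPM in CEBPA-first. CSF3R-only replicate A, at 512 CPM, lay just below the lowest CEBPA-first sample, at 513 CPM. The log2 fold change between CEBPA-first and CSF3R-only was 0.11 (SE 0.05, edgeR adjusted p = 0.077). With DESeq2 it was 0.13 and was called (adjusted p = 0.018). Sf3b2 had the highest level per length of the SF3A, SF3B and U2AF subunits among the members, at 53.5 CPM per kb. Its level was 342 ± 5.21, 368 ± 7.75 and 385 ± 15.3 CPM (log2 fold change 0.17, SE 0.05, edgeR adjusted p = 0.011). Sf3b6, the p14 subunit beside SF3B1, was not called (0.13, edgeR adjusted p = 0.059). It was called by DESeq2 (0.15, adjusted p = 0.049), without CSF3R-only replicate B (0.185, edgeR adjusted p = 0.0052) and without CSF3R-first replicate C (0.15, adjusted p = 0.043).

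U2af1, the small subunit of U2AF that reads the AG at the 3′ splice site, was at 77.1, 100.3, 89.8 and 81.7 CPM in CSF3R-only, at 103, 124 and 105 CPM in CSF3R-first and at 138, 138, 131 and 147 CPM in CEBPA-first. The groups were separate, though CSF3R-only replicate B came within a few CPM of CSF3R-first replicate A. The log2 fold change was 0.67 for CEBPA-first over CSF3R-only (SE 0.09, edgeR adjusted p = 1.3e-05), 0.35 for CSF3R-first over CSF3R-only (SE 0.09, adjusted p = 0.0097) and 0.32 between the orders (SE 0.09, adjusted p = 0.013). Without CSF3R-first replicate B the first of the calls on CSF3R-first was lost (0.26, edgeR adjusted p = 0.06), and without replicate C the call between the orders was lost (0.28, adjusted p = 0.059). Of the windows of U2af1, 16.3% also occur in 3 other gene models. U2af2, the large subunit, had a log2 fold change of 0.80 for CEBPA-first over CSF3R-only (SE 0.09, edgeR adjusted p = 2.6e-06).

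Of 13 PRPF proteins, 12 were higher in CEBPA-first than CSF3R-only (median log2 fold change 0.455), 6 were higher in CSF3R-first than in CSF3R-only (0.206), and 9 were higher in CEBPA-first than in CSF3R-first (0.301). The 5 members of the U4/U6.U5 tri-snRNP, Prpf3, Prpf4, Prpf6, Prpf8 and Prpf31, were all higher in CEBPA-first than in both other groups, with log2 fold changes against CSF3R-only from 0.18 for Prpf6 to 0.90 for Prpf31. Prpf8, which forms the core of the catalytic centre, was at 144, 147, 160 and 150 CPM in CSF3R-only, at 165, 188 and 158 CPM in CSF3R-first and at 195, 221, 210 and 226 CPM in CEBPA-first. CEBPA-first lay above all other samples, while CSF3R-first replicate C fell within the range of CSF3R-only. For Prpf8 the log2 fold change was 0.50 for CEBPA-first over CSF3R-only (SE 0.07, edgeR adjusted p = 2.3e-05) and 0.32 against CSF3R-first (SE 0.07, adjusted p = 0.0042). Between CSF3R-first and CSF3R-only it was 0.18 and not called (edgeR adjusted p = 0.063), though DESeq2 called it (0.19, adjusted p = 0.047), as did edgeR without CSF3R-first replicate C (0.255, adjusted p = 0.038). Without CSF3R-first replicate B the log2 fold change of Prpf8 was 0.11 (edgeR adjusted p = 0.3).

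Prpf19, the ubiquitin ligase of the complex that joins the spliceosome before catalysis, had the highest level per length of the PRPF proteins, at 24.9 CPM per kb. It was at 128 ± 12.8, 169 ± 24.9 and 243 ± 7.62 CPM, with a log2 fold change of 0.93 for CEBPA-first over CSF3R-only (SE 0.09, edgeR adjusted p = 1.1e-06). Prpf40b (ENSMUSG00000023007, chromosome 15, 99295087 to 99317018, plus strand), a U1-associated protein, rose most of the family but from a low level. It was at 2.72, 3.64, 3.37 and 3.10 CPM in CSF3R-only, at 3.53, 5.09 and 4.87 CPM in CSF3R-first and at 6.61, 7.25, 7.20 and 6.92 CPM in CEBPA-first. CSF3R-first replicate A lay inside the range of CSF3R-only, and the CEBPA-first samples lay above all others. The log2 fold change was 1.12 for CEBPA-first over CSF3R-only (SE 0.13, edgeR adjusted p = 5.1e-06), 0.49 for CSF3R-first over CSF3R-only (SE 0.14, adjusted p = 0.015) and 0.635 between the orders (SE 0.14, adjusted p = 0.0027). Without CSF3R-first replicate B or C its call between CSF3R-first and CSF3R-only was lost (edgeR adjusted p = 0.075 and 0.051). Prpf18, a factor of the second catalytic step, was the PRPF member not called (log2 fold change -0.09, edgeR adjusted p = 0.14).

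The other genes of the splicing machinery were taken as 5 lists. In the list of other core spliceosome genes, CEBPA-first was above CSF3R-only in 38 of 48 tested and below it in 1 (median log2 fold change 0.364). Ppil1, a prolyl isomerase of the active spliceosome, rose most (0.885, edgeR adjusted p = 7.4e-07), and Slu7, a second-step factor, fell by 0.29 on the log2 scale (adjusted p = 0.00024). Among SR-related proteins and the exon junction complex, 16 of 21 were higher (median 0.369), with Tra2b, an activator of exon inclusion, at 0.75 (edgeR adjusted p = 2.2e-06). In CSF3R-first against CSF3R-only, 17 of 48 and 11 of 21 of these genes were higher, beside 21.6% of all tested genes.

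Of 30 other regulators of splice site choice, 22 were higher and 4 lower in CEBPA-first relative to CSF3R-only (median log2 fold change 0.513), where 35.4% of all tested genes were higher and 36.6% lower. Syncrip, an RNA-binding protein related to hnRNPs, rose from 109 ± 12.3 CPM in CSF3R-only to 245 ± 18.7 CPM in CEBPA-first (log2 fold change 1.17, SE 0.12, edgeR adjusted p = 1.2e-06). Rbfox2, which binds GCAUG elements, fell from 4.48 ± 0.923 to 1.78 ± 0.276 CPM (-1.34, SE 0.17, adjusted p = 8.9e-06). Rbfox2 was at 3.93 ± 0.296 CPM in CSF3R-first and was not called against CSF3R-only (-0.19, edgeR adjusted p = 0.4; -0.29 without CSF3R-only replicate C and -0.086 without CSF3R-only replicate A), while CEBPA-first lay below CSF3R-first (-1.15, adjusted p = 0.00026). The other genes that fell were Mbnl2, Rbm5 and Ptbp2, with log2 fold changes of -0.58, -0.39 and -0.26.

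Of the 7 kinases that phosphorylate SR proteins, CEBPA-first was above CSF3R-only in 1 and below it in 3 (median log2 fold change 0.013), where 35.4% of all tested genes were higher and 36.6% lower, so the count of lower kinases was near that of genes at large. Srpk1, the cytoplasmic SR protein kinase that promotes their import, rose from 82.2 ± 5.18 through 114 ± 13.6 to 141 ± 6.66 CPM (0.77, SE 0.08, edgeR adjusted p = 1.3e-06). Clk1, a nuclear kinase of SR proteins, was at 118 ± 8.79, 83.2 ± 6.82 and 78.7 ± 3.86 CPM. It fell by 0.58 on the log2 scale in CEBPA-first (SE 0.07, edgeR adjusted p = 6.6e-06) and by 0.50 in CSF3R-first (SE 0.08, adjusted p = 0.00035) against CSF3R-only, and the orders were not called different (-0.08, adjusted p = 0.41; -0.12 without CSF3R-first replicate C and -0.005 without replicate A). Clk3 and Clk4 fell by 0.25 and 0.17 on the log2 scale in CEBPA-first (edgeR adjusted p = 0.002 and 0.037), and Clk2 was not called (0.11, adjusted p = 0.091).

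The list of snRNP assembly genes includes the SMN complex, which loads Sm proteins onto small nuclear RNAs. In this list 13 of 15 genes were higher in CEBPA-first than CSF3R-only and 1 was lower (median log2 fold change 0.790). In CSF3R-first, 9 of 15 were higher than in CSF3R-only (0.393). Gemin4, not called in CEBPA-first against CSF3R-only, was near the floor, with group means from 0.139 to 0.245 CPM. Prmt5, which methylates Sm proteins, rose from 63.0 ± 8.17 through 104 ± 20.0 to 165 ± 13.0 CPM. Its log2 fold change was 1.39 for CEBPA-first over CSF3R-only (SE 0.12, edgeR adjusted p = 3.8e-07). Its partner Wdr77 and the SMN complex proteins Gemin5 and Gemin6 reached 1.07, 1.12 and 1.22, and Smn1 reached 0.72. Gemin7, also of the SMN complex, fell by 0.295 on the log2 scale (SE 0.06, edgeR adjusted p = 0.001).

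**Figure D5:**
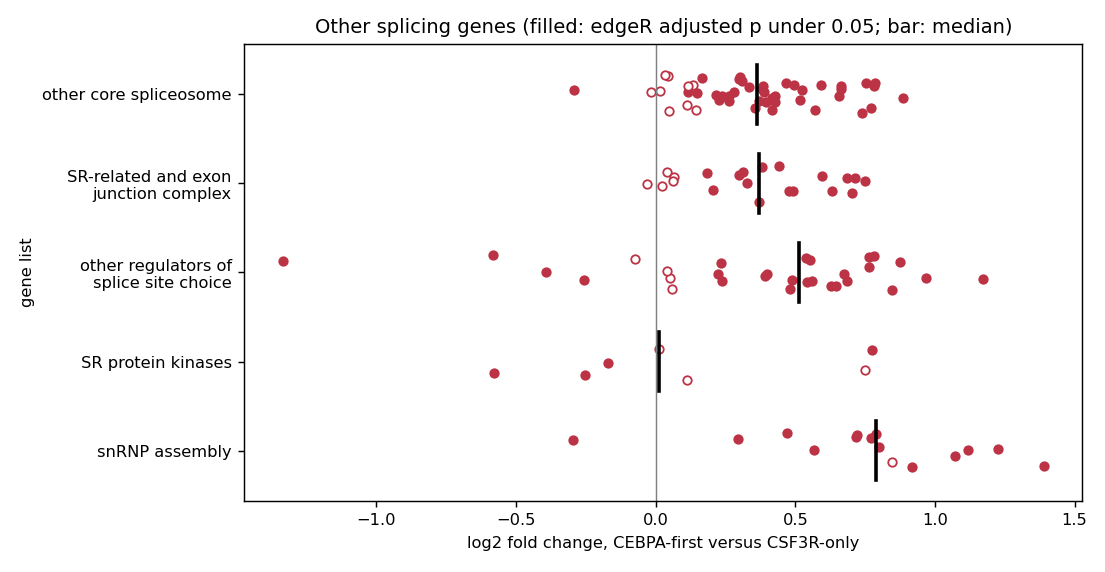
Log2 fold change between CEBPA-first and CSF3R-only for the tested genes of 5 further lists; each point is a gene, filled where the edgeR adjusted p was under 0.05, the vertical bar is the median of the list, and the vertical scatter within a list has no meaning. The medians are 0.364, 0.369, 0.513, 0.013 and 0.790 from top to bottom, so that the SR protein kinases are centred near 0.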

How the data were processed

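Reads were trimmed (Trimmomatic) and aligned (STAR, mm10 per the labels) by the authors, who deposited raw counts per gene for 11 samples; the counting tool, annotation and use of strand are not given in the sources used here. Gene positions, exon lengths and overlaps came from GENCODE for GRCm38. Counts passing filterByExpr were TMM-normalized and tested with edgeR 4.0.16 (quasi-likelihood test) in R 4.3.3, in 1 fit of the 3 groups, with Benjamini-Hochberg adjustment over 15703 genes. The SE of a log2 fold change is its size over the square root of F. Log2 CPM used a prior count of 2. Levels per length divide mean CPM by exon length. Shared sequence is the percent of 100-base windows also found in transcripts of other genes. Samples held 47905747 to 72268346 counts. DESeq2 1.42.0, other normalizations, filters, call rules, fits of the compared groups only, a replicate block and each sample left out were alternatives; a restriction to members with few shared reads was chosen after seeing the data. The methods were tested on simulated data. Members and lists were chosen with earlier results of these data known.

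The rule for named members took those called with a log2 fold change of 1 or more, the largest rise, the largest fall and the highest level per length in each family, Sf3b1, Srsf2, U2af1 and Prpf8 as genes mutated in human myeloid neoplasms, members never called, and members whose CSF3R-first mean lay outside the other means with a call against both; in the other lists it took the largest rise and fall. The further genes were named after their values were seen, to complete a complex, a pair or a list.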

Additional observations from a re-analysis of the deposited data

Results flagged for a closer look

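Values of single samples lay far from the other 3 of their group in 7 of 170 groups of 4 samples checked, where chance flags about 1 in 20, or 8.5. In CEBPA-first, replicate D was high for Lsm7, at 22.4 CPM with the next sample at 18.3 CPM, and for Snrpf, at 9.54 CPM with the next at 8.3 CPM. Sf3b2 was high in CEBPA-first replicate B, at 407 CPM against 378 CPM for the next sample. CEBPA-first replicate C was low for Srsf3, at 456 CPM with the next at 484 CPM, and for Snrpa1, at 104 CPM with the next at 115 CPM. In CSF3R-only, replicate B was high for Hnrnpf, at 183 CPM with the next at 170 CPM, and for Hnrnpr, at 102 CPM with the next at 96.9 CPM. CSF3R-first, with 3 samples, was not checked in this way.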

How the results depend on the processing

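With scaling to library size alone, the median log2 fold change of all tested genes moved to 0.129 in CEBPA-first against CSF3R-only, and that of the members to 0.777; in CSF3R-first against CSF3R-only, 27.5% of genes were then higher and 16.9% lower, so that 61.9% of calls were higher in place of 50.5%. With at least 10 counts in every sample, 2 members were lower in CEBPA-first, the second being Prpf18 (edgeR adjusted p = 0.03); the cause was not tested. Requiring a log2 fold change of 1 left 3 members higher and 0 lower in CEBPA-first against CSF3R-only, and 0 in either direction in the other comparisons, since the other members changed less than that. At an adjusted p under 0.01, the number of lower members in CSF3R-first against CSF3R-only was 0. Leaving out each sample in turn gave 65 to 72 higher members and 1 lower in CEBPA-first against CSF3R-only (median log2 fold change 0.600 to 0.672), 46 to 57 higher and 0 to 1 lower in CSF3R-first against CSF3R-only (0.287 to 0.401), and 43 to 55 higher and 1 lower in CEBPA-first against CSF3R-first (0.237 to 0.342). Of 62 members with few shared reads, a choice made after seeing the data, 55, 45 and 39 were higher and 1 lower in the 3 comparisons in that order.

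Of the members not called between CEBPA-first and CSF3R-only, Lsm1, Hnrnpul2, Sf3b1 and Sf3b6 were called higher with scaling to library size alone, which raised all genes alike. They were also called higher with no filter on low counts (edgeR adjusted p of 0.02, 0.015, 0.035 and 0.024). With scaling to library size alone, Srsf5 too was called higher in CEBPA-first, against CSF3R-only (0.14, edgeR adjusted p = 0.022) and against CSF3R-first (0.142, adjusted p = 0.044).

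A replicate block on the letters A to D gave 69, 59 and 53 higher members and 1 lower in the 3 comparisons, and among the named genes it changed the call of Prpf8, which was then higher in CSF3R-first than CSF3R-only (log2 fold change 0.196, edgeR adjusted p = 0.044). Deviations of same-letter samples from their group means correlated from -0.107 to 0.362 over genes. Only replicates C of CEBPA-first and CSF3R-first were negatively correlated among them. Different-letter samples of different groups correlated from -0.341 to 0.384. Not all same-letter pairs were above 0.1, so the letters were not taken to pair the samples. The labels do not say whether a letter marks a shared batch. Of 810 values of single named genes under settings other than leaving out a sample, 781 kept their side of the threshold, 26 gained a call and 3 lost one, and of 990 values with a sample left out, 969 kept it, 10 gained a call and 11 lost one; none of these changed direction with a call. Depth limits the level of Prpf40b and Snrpf more than that of the other members, as these had the fewest counts.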
